A study of Mus musculus with 12 samples.

Results

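Retinoic acid, made from vitamin A, acts through nuclear receptors and is the signal to which germ cells respond by switching on Stra8 before meiosis. The 10 genes of this response described here were measured in newborn male germ cells with and without Morc1. They are Stra8 itself, the 3 retinoic acid receptors (Rara, Rarb and Rarg), the cellular retinoic acid binding proteins Crabp1 and Crabp2, and the enzymes Rdh10, Dhrs3, Aldh1a1 and Aldh1a2. These 10 genes were chosen by name, and all 10 were found among the 35666 listed genes by their Ensembl identifiers in GENCODE release M21 (GRCm38). All 10 passed the filter of a mean of at least 10 normalized counts, as did 26005 genes in all. RNA came from gonocytes, which are male germ cells around birth before they become spermatogonia, isolated from mice with the germ cell reporter Mvh-Venus. The groups compared were Morc1 (+/-) mice, called het, and Morc1 (-/-) mice, called KO, both at postnatal day 0 (P0), with 3 libraries each. The het controls thus lack 1 functional allele of Morc1, and no group with both alleles was analysed here. The series addresses what the loss of Morc1, which encodes a chromatin protein of germ cells, does to the chromatin and transcripts of these cells. Nothing in the labels says whether the 3 libraries of a group came from separate animals or from pools, so p-values measure only the spread between these samples, which may be technical.

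In the cell, RDH10 oxidizes retinol to retinaldehyde, DHRS3 reduces it back, and the ALDH1A enzymes turn retinaldehyde into retinoic acid. CRABP proteins carry retinoic acid in the cytoplasm, and CYP26 enzymes break it down. The receptors bind, as dimers with retinoid X receptors, to paired short sites in the DNA near target genes, of which Rarb and Cyp26a1 are textbook examples. In the fetal testis, breakdown of retinoic acid by CYP26B1 is known to hold Stra8 down until after birth. STRA8 is a nuclear protein needed for meiotic entry.

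The promoter windows of Stra8, Rarb and Cyp26a1 are shown because the transcripts of these genes are common readouts of the response, and their levels are given below. Each window runs from 250 bases before to 50 bases after a RefSeq start (GRCm38.p6), 5′ to 3′ on the strand of the gene. Capitals mark the 3 hexamers that were searched as receptor sites on both strands. These were AGGTCA, then AGTTCA, and last GGTTCA. Stra8 lies on the plus strand (chr6:34920698-34920997), Rarb on the minus strand (chr14:16575427-16575726) and Cyp26a1 on the plus strand (chr19:37697558-37697857).
Stra8: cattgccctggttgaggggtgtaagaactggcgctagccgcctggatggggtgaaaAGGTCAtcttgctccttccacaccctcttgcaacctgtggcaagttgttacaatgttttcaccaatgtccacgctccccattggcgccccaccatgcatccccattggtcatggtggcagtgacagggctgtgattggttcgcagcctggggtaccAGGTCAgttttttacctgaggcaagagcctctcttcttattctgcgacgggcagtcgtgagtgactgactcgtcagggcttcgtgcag
Rarb: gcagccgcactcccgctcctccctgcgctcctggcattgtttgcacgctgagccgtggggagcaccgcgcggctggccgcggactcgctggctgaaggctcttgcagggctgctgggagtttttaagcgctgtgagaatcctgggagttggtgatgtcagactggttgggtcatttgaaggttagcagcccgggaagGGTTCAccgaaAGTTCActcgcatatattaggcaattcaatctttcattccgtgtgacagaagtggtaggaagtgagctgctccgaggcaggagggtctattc
Cyp26a1: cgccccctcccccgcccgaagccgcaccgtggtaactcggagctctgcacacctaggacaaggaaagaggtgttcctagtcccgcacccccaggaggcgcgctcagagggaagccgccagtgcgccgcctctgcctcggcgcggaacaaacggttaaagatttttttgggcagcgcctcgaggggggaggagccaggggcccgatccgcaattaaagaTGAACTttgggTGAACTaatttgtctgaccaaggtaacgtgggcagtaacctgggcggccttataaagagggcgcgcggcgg

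In the Stra8 window AGGTCA occurred at -194 and -38, counted from the start. The Rarb window held GGTTCA at -53 and AGTTCA at -42, so that the run GTTCA was repeated in the same direction with 6 bases between its copies. In the Cyp26a1 window TGAACT, the other-strand reading of AGTTCA, occurred at -32 and -21 and formed the same repeat on that strand. This repeat was found in 0.0761% of the 32851 windows in the table, and any of the 3 hexamers in 35.0%. Among the 10 genes, 8 had windows in the table, and hexamers occurred in those of Stra8, Rara, Rarb and Rarg, in 5 of 15 windows. Crabp2 and Rdh10 had no entry. A match is a run of letters and not a measured binding site.

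The gene table held between 28363683 and 32816861 reads per library. Every one of the 10 genes had at least 123 reads in every library. The reads carry no molecular identifiers, so how many molecules they stand for, and the counting error, are not known. Values are listed in the order of replicates 1, 2 and 3 throughout. Morc1 was examined as a check of the labels. The het libraries held 7248, 7485 and 4126 normalized counts of it and the KO libraries 1360, 1343 and 1794, so the genotypes were fully apart (limma log2 fold change -2.03, SE 0.27, adjusted p 0.0109). Germ cell identity was clear in all libraries, in which Ddx4, the gene behind the Mvh reporter, ran from 17605 to 31038 normalized counts and Dazl from 48158 to 72571. Het replicate 3 stood apart from the other 5 libraries by its Leydig cell markers, the steroid-producing cells between the testis cords. Their sum over 6 genes was 25364 normalized counts there and 630 to 1162 in the others, and where it moved an estimate of the 10 genes most, the value without it is given too.

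None of the 10 genes passed the test between genotypes. In the limma fit across 26005 genes, 0 of 10 had an adjusted p under 0.05, against 0.473% of all genes tested. By direction, 112 genes (0.431%) were called higher in KO and 11 (0.0423%) lower. At an unadjusted p under 0.05 there was 1 of 10, Aldh1a1, against 6.86% of all genes tested. Both edgeR and DESeq2 on recovered reads also called 0 of the 10. Estimates were positive for Rarb, Dhrs3 and Crabp2 and negative for the other 7, with a median log2 fold change of -0.20 beside -0.02 for all genes tested. The libraries of the genotypes did not overlap for 3 of the 10 genes: Dhrs3 with KO above het, and Crabp1 and Aldh1a1 with KO below het. Over all genes tested this held for 12.7%, with KO above het for 7.17% and below it for 5.57%.

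**Figure D1:**
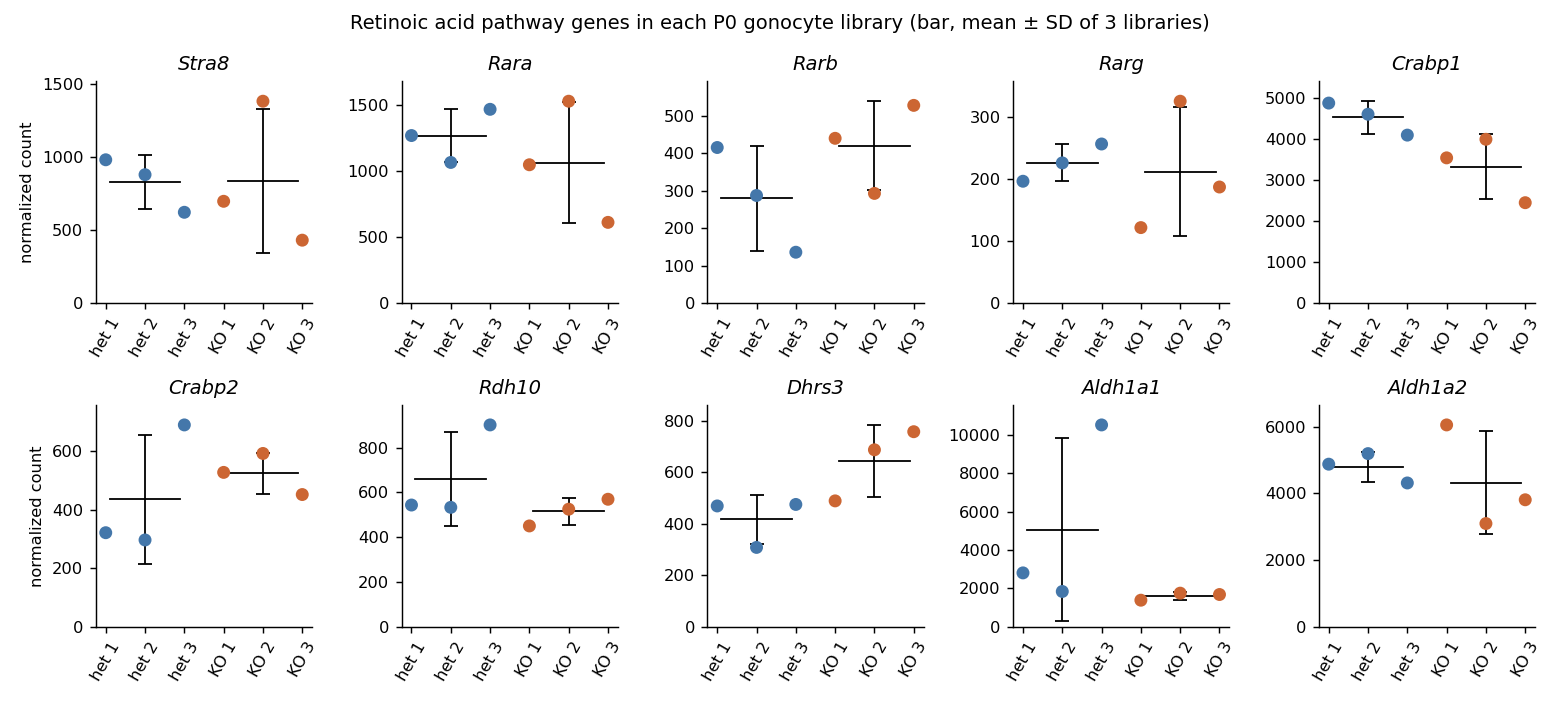
Normalized counts of Stra8 and 9 retinoic acid pathway genes (y axis, from 0) in each of the 6 P0 libraries (x axis, blue het, orange KO), with the mean and SD of each group of 3 as lines. Genotypes separate without overlap for Dhrs3, Crabp1 and Aldh1a1, and het replicate 3 is far above the other libraries for Aldh1a1, at 10527.

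Stra8 (ENSMUSG00000029848, chromosome 6, 34920163 to 34939344, plus strand; like the other 9, a protein-coding gene) was present in every library and did not separate by genotype. The het libraries held 982, 880 and 622 normalized counts and the KO libraries 698, 1384 and 431. Both the highest and the lowest of the 6 values were thus in KO libraries, and the KO values spread 3.21-fold. Mean levels were 828 ± 185 in het and 837 ± 491 in KO (SD, n = 3). The limma log2 fold change was -0.12 (SE 0.39), with an adjusted p of 0.977. Its 95% interval runs from 0.501-fold to 1.68-fold of the het level, so the data leave changes within those bounds undecided. Leaving out single libraries moved the estimate between -0.57 and 0.27, and the sign turned without KO replicate 3 or het replicate 1.

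Among 14060 other protein-coding genes with a mean of at least 100, those whose log2 levels were most like Stra8 over the 6 libraries were Uhrf1, Ero1lb, Bcl6b, Nln and Cpne2. Their Pearson r ranged from 0.991 for Cpne2 to 0.997 for Uhrf1. With the genotype means subtracted from each gene, the leading genes were Uhrf1, Ero1lb, Prkcz, Bcl6b and Tipin (r from 0.996 to 0.999). Uhrf1, which directs maintenance DNA methylation, had 3868, 3488 and 1919 normalized counts in het and 2117, 6681 and 919 in KO. Bcl6b, a transcription factor known from spermatogonial stem cells, had 1478, 1375 and 685 in het and 927, 3023 and 428 in KO. As for Stra8, KO replicate 2 was highest and KO replicate 3 lowest for both. These values were picked as the highest among all genes compared, over 6 points, and are given only as a description.

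The receptors bind retinoic acid and carry its signal to DNA. Rara (ENSMUSG00000037992, plus strand of chromosome 11 from 98927818 to 98974942) had 1269, 1065 and 1468 normalized counts in het and 1048, 1529 and 611 in KO. The highest and the lowest library were again KO replicates 2 and 3, and the limma log2 fold change was -0.34 (95% interval -1.06 to 0.39, adjusted p 0.908).

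Rarb (ENSMUSG00000017491, minus strand of chromosome 14 from 16430839 to 16819156), itself a target of retinoic acid with the repeat shown above, had 415, 287 and 136 normalized counts in het and 439, 292 and 527 in KO. The genotypes overlapped, since het replicate 1 exceeded KO replicate 2. Its limma log2 fold change was 0.69 (95% interval -0.23 to 1.61, adjusted p 0.842), and 0.24 without het replicate 3, the lowest library. The annotated Rarb gene begins at 16819156 on its strand, so the window shown above belongs to a start inside the gene. Counts are for the whole gene and not for that start alone. The end of Rarb overlaps Top2b on the opposite strand, and 1433 bases of its longest transcript, 46.1%, are shared with a Top2b transcript. The strand setting of the counting is not given in the sources used here, and how reads of the shared stretch were divided is therefore uncertain. Top2b had 454, 432 and 1193 normalized counts in het and 508, 960 and 790 in KO.

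Rarg (ENSMUSG00000001288, minus strand of chromosome 15 from 102234938 to 102257517) had 196, 226 and 257 normalized counts in het and 122, 325 and 187 in KO. Here too the KO libraries lay on both sides of the het libraries (limma log2 fold change -0.20, 95% interval -1.04 to 0.63, adjusted p 0.955).

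To compare the receptors with each other, normalized counts were divided by the length of all annotated exons. Rara made up most of the receptor level per kb, at 73.0% ± 5.76 in het and 63.4% ± 12.4 in KO (SD, n = 3). Rarb had 13.5% ± 6.65 and 23.5% ± 11.9, and Rarg 13.5% ± 2.11 and 13.1% ± 4.36 (SD, n = 3). Exact two-sided permutation tests of these shares gave p = 0.4, 0.3 and 1, where 0.1 is the smallest value that 3 against 3 allows, so no share could have passed a threshold of 0.05. Adjusted over the 5 shares tested across the receptor, CRABP and ALDH1A families, the values were 0.5, 0.5 and 1. Rarb had its largest share, 35.2%, in KO replicate 3 and its smallest, 6.10%, in het replicate 3.

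**Figure D2:**
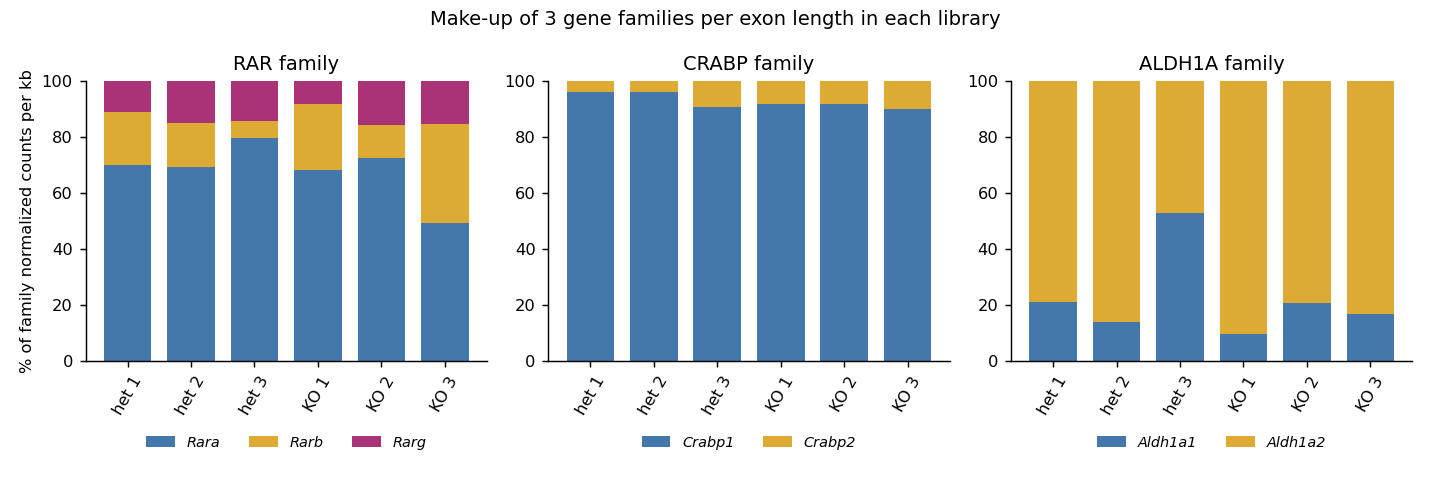
Share of each gene (y axis, percent) in the summed normalized counts per kb of exon of its family, for the receptors, the CRABP genes and ALDH1A1 with ALDH1A2, in each of the 6 libraries (x axis). Rara leads the receptors in every library, Crabp1 makes up most of the CRABP level in all 6, and Aldh1a1 exceeds Aldh1a2 only in het replicate 3, at 52.8%.

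Crabp1 was the most abundant of the 10 genes per kb. Crabp1 (ENSMUSG00000032291, plus strand of chromosome 9 from 54764748 to 54773110) had 4888, 4615 and 4105 normalized counts in het and 3549, 4003 and 2453 in KO. The KO values were all under the het values, with het replicate 3 and KO replicate 2 only 102 apart. The limma log2 fold change was -0.47 (SE 0.23, 95% interval -0.98 to 0.04), with an unadjusted p of 0.0676 and an adjusted p of 0.785, so it did not pass.

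Crabp2 (ENSMUSG00000004885, plus strand of chromosome 3 from 87948666 to 87953376), which delivers retinoic acid to receptors in the nucleus, had 321, 297 and 690 normalized counts in het and 527, 592 and 452 in KO. The KO libraries lay between het replicate 3 and the other two het libraries. The limma log2 fold change was 0.37 (95% interval -0.39 to 1.12, adjusted p 0.905). Without het replicate 3 it was 0.75 (95% interval 0.14 to 1.36), with an unadjusted p of 0.0209 and a limma adjusted p of 0.567. Crabp1 made up 94.4% ± 3.15 of the CRABP level per kb in het and for KO 91.2% ± 1.04 (SD, n = 3), with an exact permutation p of 0.3 and an adjusted p of 0.5. By library, that share was 96.2% in het replicates 1 and 2, 90.8% in het replicate 3 and at most 91.8% in KO, so the genotypes overlapped through het replicate 3.

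Of the enzymes, Dhrs3 had the clearest separation in the upward direction. Dhrs3 (ENSMUSG00000066026, plus strand of chromosome 4 from 144892827 to 144928209), a retinaldehyde reductase and a known retinoic acid target, had 469, 308 and 475 normalized counts in het and 489, 687 and 757 in KO. All KO libraries were above all het libraries, with KO replicate 1 close to het replicate 3. The limma log2 fold change was 0.63 (SE 0.29), a level 1.55-fold that of het (95% interval 0.996 to 2.40), with an unadjusted p of 0.0518 and an adjusted p of 0.738.

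Rdh10 (ENSMUSG00000025921, plus strand of chromosome 1 from 16105774 to 16133734), which makes the retinaldehyde that DHRS3 removes, had 544, 533 and 901 normalized counts in het and 450, 525 and 569 in KO. Genotypes overlapped, and het replicate 3 was the highest library. The limma log2 fold change was -0.32 (95% interval -0.93 to 0.30, adjusted p 0.897), and -0.07 without het replicate 3.

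Aldh1a1 (ENSMUSG00000053279, plus strand of chromosome 19 from 20492715 to 20643465), a retinaldehyde dehydrogenase known from somatic cells of the testis, had 2810, 1841 and 10527 normalized counts in het and 1386, 1752 and 1682 in KO. The KO values were all under the het values, and het replicate 3 was 3.75-fold above the next. The limma log2 fold change was -1.24 (SE 0.52, 95% interval -2.39 to -0.10), with an unadjusted p of 0.0361 and an adjusted p of 0.677. Without het replicate 3 the log2 fold change was -0.51 (95% interval -1.09 to 0.08, unadjusted p 0.0815, limma adjusted p 0.748). A transcript of Aldh1a7, a neighbouring relative, matched 86.5% of the longest Aldh1a1 transcript with 89.0% identity, so some reads could be split between them. Aldh1a7 had 256, 249 and 210 normalized counts in het, and 122, 82.7 and 85.2 in KO. There, het replicate 3 was the lowest het library and all KO libraries were lower still (limma log2 fold change -1.31, SE 0.31, unadjusted p 0.00165, adjusted p 0.157).

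Markers of Sertoli cells, and in het replicate 3 of Leydig cells, were high in the libraries with high Aldh1a1. Endothelial and myoid marker sums were instead higher in every KO library. Endothelial sums were 2275 to 2996 in het and 3511 to 4182 in KO, and myoid sums 5813 to 6300 and 6459 to 7383. Without Tek, the most abundant endothelial marker, the other 4 summed to 1688 to 2162 in het and 1379 to 2267 in KO, which overlap. Without Col1a1, the most abundant myoid marker, the myoid sums overlap as well. Libraries of the genotypes did not overlap for 1 of the 9 myoid markers, against 12.7% of all genes tested. In bulk samples, fewer cells of a type and less RNA per cell cannot be told apart. The 12 Sertoli cell markers summed to 27648 to 45423 normalized counts in het and 21026 to 23309 in KO, without overlap and highest in het replicate 3. This separation depends on Dmrt1, which is also on the list of germ cell regulators and was named after its values were seen. Dmrt1 had 6658, 9277 and 6638 in het and 7688, 6941 and 4399 in KO. With Dmrt1 left out, the Sertoli cell sums overlap, with het replicate 2 below KO replicate 3. Of these 12 genes, 11 had a negative estimate and 0 passed an adjusted p under 0.05 with limma. An unadjusted limma p under 0.05 was found for 4, Amh, Clu, Sox9 and Dhh, against 6.86% of all genes tested. Without het replicate 3 this held for 2 of these 4, Amh and Clu, while Sox9 had a limma p of 0.0735 and Dhh of 0.0533. Clu and Inha were the most abundant of the list, and none of the 12 was at 0 in any library. Clu passed with DESeq2 (adjusted p 0.0477), which called 65 genes lower over all genes. It did not pass with edgeR (adjusted p 0.256) or limma (adjusted p 0.253). Leydig cell markers summed to 852, 1134 and 25364 in het and 630, 1138 and 1162 in KO, with Cyp11a1 and Hsd3b1 the most abundant, and 0 of 6 passed. Adh1, a retinol and alcohol dehydrogenase of the synthesis list, singled out after its values were seen, followed the same library: it had 442, 386 and 4611 normalized counts in het and 437, 342 and 544 in KO. Its limma log2 fold change was -1.09, and 0.07 without het replicate 3. The part of these cells in the values of Aldh1a1, Rdh10 and Crabp2 was not tested.

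**Figure D3:**
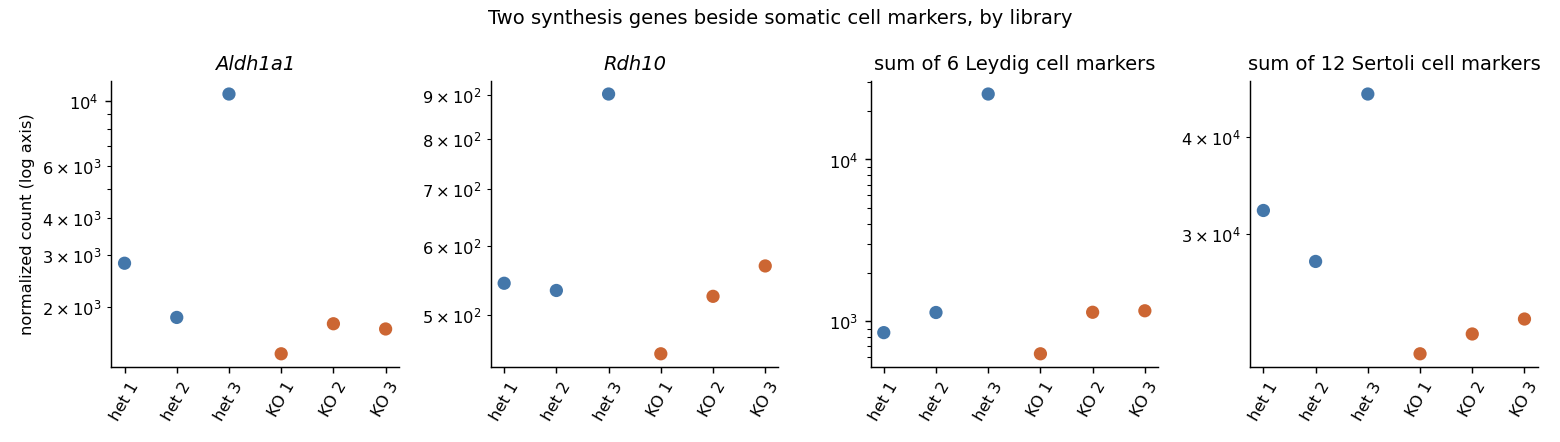
Normalized counts (y axis, log scale) of Aldh1a1, Rdh10, the sum of 6 Leydig cell markers and the sum of 12 Sertoli cell markers in each of the 6 libraries (x axis, blue het, orange KO). Het replicate 3 is the highest library in all 4 panels, with 25364 for the Leydig cell sum.

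Aldh1a2 (ENSMUSG00000013584, plus strand of chromosome 9 from 71215789 to 71296243), the other retinaldehyde dehydrogenase, had 4874, 5191 and 4311 normalized counts in het and 6051, 3095 and 3807 in KO. The KO libraries lay on both sides of the het libraries (limma log2 fold change -0.20, 95% interval -0.78 to 0.37, adjusted p 0.936). Aldh1a1 made up 29.2% ± 20.7 of the level of both genes per kb in het and for KO 15.7% ± 5.65 (SD, n = 3), with an exact permutation p of 0.4 and an adjusted p of 0.5. In het replicate 3 its share was 52.8%, and in the other libraries 9.51% to 20.9%.

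**Figure D4:**
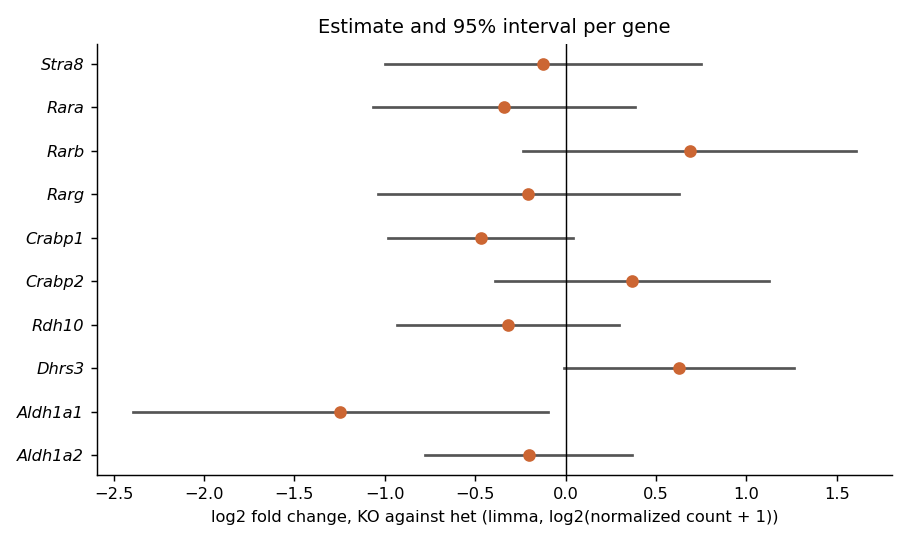
Limma log2 fold change of KO against het (x axis, on log2(normalized count + 1)) with its 95% interval for each of the 10 genes (y axis). The interval of Aldh1a1, from -2.39 to -0.10, is the one that does not include 0, and no gene passed after adjustment over 26005 genes.

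Ordered by mean level per kb of exon over the 6 libraries, the genes ran from Crabp1 (4907 normalized counts per kb) and Aldh1a2 (2012) through Aldh1a1 (675), Stra8 (462), Crabp2 (363), Rara (267), Dhrs3 (181) and Rdh10 (141) to Rarb (66.4) and Rarg (51.4). Crabp1 lay above Aldh1a2 in all libraries, with ranges that did not overlap, and Rdh10 likewise above Rarb. The ranges of the other 7 pairs of neighbours overlapped. All annotated exons together are longer than the longest transcript, at 5265 against 3108 bases for Rarb and 4937 against 2358 for Aldh1a1. Levels per kb, and with them this order and the family shares, depend on the length used. With another length the ranges of Rdh10 and Rarb may overlap.

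The rest of the pathway was read from 6 lists, which together held 82 genes outside the 10. With limma, 0 of the 81 that were tested passed an adjusted p under 0.05. At an unadjusted p under 0.05 there were 5 of 81, near the share of 6.86% of all genes tested. These 5 genes are therefore described below without a claim that the pathway changed. Positive estimates were found for 41 and negative ones for 40, and the median log2 fold change was 0.00, beside -0.02 for all genes tested.

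Uptake, storage and synthesis of retinoids gave 3 of these 5 genes among 19 tested. Rdh11, a retinal reductase, had 876, 772 and 462 normalized counts in het and 234, 379 and 296 in KO, with a limma log2 fold change of -1.19 (SE 0.32, adjusted p 0.241). All KO libraries were below all het libraries, and with DESeq2 Rdh11 passed (adjusted p 0.0192), while with edgeR it did not (adjusted p 0.226). Stra6, the membrane receptor that takes up retinol, had 286, 148 and 253 in het and 143, 94.0 and 35.3 in KO, with a limma log2 fold change of -1.48 (SE 0.51, adjusted p 0.496). Dhrs4, a reductase of retinaldehyde, had 738, 612 and 1004 in het and 1199, 1042 and 1975 in KO, with a limma log2 fold change of 0.81 (SE 0.30, adjusted p 0.578). For Stra6 and Dhrs4 the libraries of the genotypes did not overlap either, a separation already favoured by naming genes with a low p.

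Breakdown enzymes were low and did not separate. Cyp26a1, whose promoter is shown above, had 148, 96.6 and 100 normalized counts in het and 109, 176 and 140 in KO (limma log2 fold change 0.30, adjusted p 0.929). Cyp26b1, the enzyme that removes retinoic acid in the fetal testis, had 188, 179 and 354 in het and 302, 248 and 154 in KO (limma log2 fold change -0.02, adjusted p 0.997). Cyp26c1 had between 8.82 and 52.7 normalized counts, with genotypes that overlapped.

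Among 17 retinoic acid target genes, 0 passed with limma and the median log2 fold change was -0.02. Besides Stra6, the genes with an unadjusted p under 0.05 were Tgm2 and Cdx1. Tgm2, a transglutaminase, had 759, 620 and 670 normalized counts in het and 641, 367 and 282 in KO, a limma log2 fold change of -0.75 (SE 0.32, adjusted p 0.690), with het replicate 2 below KO replicate 1. Cdx1, a homeobox gene, had 257, 345 and 368 in het and 346, 127 and 74.5 in KO, a limma log2 fold change of -1.10 (SE 0.49, adjusted p 0.727), with overlapping libraries. Without het replicate 3 the unadjusted limma p was 0.0679 for Tgm2 and 0.117 for Cdx1, and with edgeR 0.0649 and 0.132.

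Retinoid X receptors, co-regulators and shuttle proteins gave 0 of 14 genes past an adjusted p and 0 past an unadjusted p of 0.05, with a median log2 fold change of -0.08. The same counts, 0 and 0, were found for the 16 partners and targets of Stra8 at meiotic entry (median 0.10) and for the 19 germ cell regulators of the response (median -0.01). Gm4969, the gene of the STRA8 partner MEIOSIN, had 691, 619 and 470 normalized counts in het and 597, 870 and 684 in KO. Rec8, a meiotic cohesin subunit switched on by retinoic acid, had 1759, 1865 and 1725 in het and 1841, 1423 and 1562 in KO. Both genes, like the breakdown enzymes above, were named for their roles after their values were seen, and their genotypes overlapped.

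**Figure D5:**
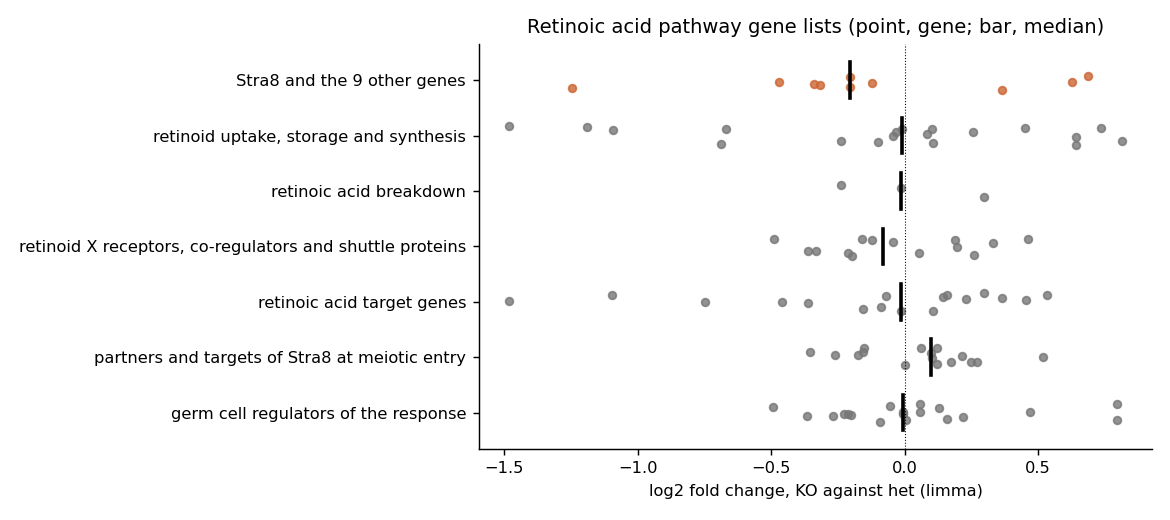
Limma log2 fold change of KO against het (x axis) for each gene (points) of 7 groups (y axis), Stra8 with the 9 other genes in orange and the 6 pathway lists in grey, with the median as a bar. Medians lie between -0.20 and 0.10.

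Transposable element (TE) copies near the 10 genes gave a further readout from the same RNA. The TE table lists 77 copies within 10 kb of these genes, of which 10 reached a mean of at least 10 and were tested. Of these 10 copies, 1 was called higher and 0 lower with limma at an adjusted p under 0.05, against 16.3% called of the 49781 copies tested in all (15.6% higher and 0.735% lower). No copy near Stra8, Rarg, Crabp1 or Crabp2 reached the mean needed for a test.

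The copy called higher lies in an intron of Aldh1a1, on the strand opposite to it (chromosome 19 from 20568061 to 20573795, GRCm38, 5735 bases), 75346 bases from the annotated start of the gene. The het libraries held 2.11, 5.61 and 19.2 normalized counts of it, and the KO libraries 77.3, 99.1 and 71.9. Group means were 8.96 in het and 82.7 in KO, so this copy reached the mean of 10 only through its KO libraries. Its entry into the test thus already depended on a higher level in KO. All KO libraries were far above all het libraries (limma log2 fold change 3.48, SE 0.67, adjusted p 0.00437), and the call held in all 10 alternatives run for it, with adjusted p-values from 0.000277 to 0.0342. Aldh1a1 itself had its lower values in KO, as given above. A copy 7238 bases past the end of Rdh10 on the same strand (chromosome 1 from 16140972 to 16146020) had 22.1, 16.8 and 51.8 normalized counts in het and 3.82, 12.4 and 0 in KO, with a limma log2 fold change of -2.80 (SE 0.98, adjusted p 0.0787). All its KO libraries were below all het libraries, and it passed in 2 of 10 alternatives. The KO libraries of this copy alone had a mean under 10, so it reached the filter only through its het libraries. This separation was thus already favoured by an entry into the test that depended on a higher level in het. Inside Rarb, 3 intronic copies on its own strand had log2 fold changes of -0.82, -0.52 and 0.80, and none passed. How reads that match several similar copies were counted is not given in the sources used here, so values of single copies are uncertain.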

How the data were processed

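The deposited gene table holds a signal, read counts normalized by DESeq2 according to its name, and the deposited TE table a signal scaled in the same way. The TE columns name genotype and replicate, and only that table's name gives P0. Per the labels' protocols, libraries were made with SMART-seq and TruSeq kits. The submitters' processing notes name cutadapt 1.18, HISAT2 2.1.0, featureCounts 1.5.2, DESeq2 1.26.0 and the build GRCm38, with no settings. In each library, for genes and for TE copies, 100% of values were whole multiples (within 0.01) of 1 step, which gave the reads used for totals and count tests. Of 12 labelled samples, the 6 from P3 were not analysed here.

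Features whose mean reached 10 entered the main test, two-sided limma 3.58.1 with trend (R 4.3.3) on log2(value + 1), without covariates, with Benjamini-Hochberg adjustment over all features. On this scale the change of low features is understated. Intervals are limma's 95% intervals. edgeR 4.0.16 and DESeq2 1.42.0 on recovered reads, other pseudocounts, filters and scalings, a replicate block and leaving out each library were alternatives. Scripts were tested on simulated data. Transcripts were compared with BLAST 2.17.0. Named genes are the 10 genes, Morc1, in each list those with an adjusted p under 0.05 and up to 3 with the smallest unadjusted p under 0.05, the 5 most like Stra8, and of each marker list the 2 most abundant and those with an unadjusted p under 0.05. Outside this rule, Aldh1a7, Top2b and Ddx4 were named for the genes or reporter they bear on, and others are marked as named after their values were seen. The members and lists were chosen with earlier results of these data known. Reads carry no molecular identifiers here.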

Additional observations from a re-analysis of the deposited data

How the results depend on the processing

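None of the 10 genes passed an adjusted p under 0.05 in any of 170 recomputed values, 17 alternatives for each gene, and in 7 of these the sign of an estimate turned. For Stra8 the log2 fold change was 0.016 with edgeR and 0.017 with DESeq2, and without single libraries it ran from -0.57 to 0.27. Without single libraries Rara ran from -0.65 to 0.010, Rarg from -0.57 to 0.13 and Aldh1a2 from -0.48 to 0.0065. The other 6 genes kept their sign in every alternative. Morc1 ran from -2.31 to -1.88 without single libraries, and was called in 12 of 17 alternatives. It lost its call at -2.03 in limma without trend (adjusted p 0.0890), at -2.04 in edgeR with the replicate block (0.0717), and without KO replicate 1 (0.0990), KO replicate 3 (0.0623) or het replicate 1 (0.0519). Over all genes, the 112 higher became 70 and 177 with pseudocounts of 0.1 and 10, 64 with the replicate block in limma, 38 with it in edgeR (added after seeing the data), 400 with DESeq2 and 17 to 105 without single libraries. The 11 lower became 5 with a pseudocount of 0.1, 5 with the replicate block in limma, 0 with it in edgeR, 3 without trend, 65 with DESeq2 and 1 to 7 without single libraries. On the uptake and synthesis list DESeq2 called 1 gene lower. Near the 10 genes 1 TE copy was called lower with no filter, and 0 to 1 without single libraries. The same-numbered het and KO libraries share only a number: their deviations from the group means correlated at 0.14, -0.16 and -0.04 across genes, and het replicate 2 was closer to KO replicate 1 (0.16). The cause of these changes was not tested.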

Other observations

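Ret and Zbtb16, genes on the lists of the response, spread widely among the KO libraries, as Stra8 did, and they were singled out after their values were seen. Ret, the receptor for the stem cell factor GDNF, had 1838, 5027 and 768 normalized counts in KO replicates 1 to 3 and 2725, 3238 and 2086 in het replicates 1 to 3. Zbtb16, a transcription factor of spermatogonial stem cells, had 311, 1812 and 159 in KO and 475, 563 and 508 in het. In both of these, as in Stra8, Rara and Uhrf1, KO replicate 2 was the highest library and KO replicate 3 the lowest. Sall4, on the list of germ cell regulators and likewise named after its values were seen, shared this order. It had 8281, 14919 and 5622 in KO and 8759, 9804 and 8018 in het. Not all genes of these lists did so. Kit, which is on both lists and was also named after its values were seen, was lowest in KO replicate 2. It had 4073, 1694 and 3283 in KO and 2759, 3098 and 1902 in het.

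On the remaining marker lists limma called 0 genes, and the 1 gene with an unadjusted p under 0.05 was Tek. Tek, the receptor of angiopoietins on endothelial cells, had 834, 1043 and 587 normalized counts in het and 2344, 1244 and 2396 in KO, 2.39-fold higher in the limma fit (adjusted p 0.201, DESeq2 adjusted p 0.00913, edgeR adjusted p 0.180). The 5 endothelial markers summed to 2275 to 2996 in het and 3511 to 4182 in KO, led by Tek and Pecam1. Without Tek the other 4 summed to 2162, 1730 and 1688 in het and 1379, 2267 and 1786 in KO, which overlap. The 9 myoid and interstitial markers, led by Col1a1 and Des, summed to 5813 to 6300 in het and 6459 to 7383 in KO, without overlap. Col1a1 had 1805, 1565 and 1710 in het and 1529, 3013 and 1141 in KO. With Col1a1 left out, the myoid sums overlap, with KO replicate 2 below het replicates 1 and 2. Blood and macrophage markers, led by Hba-a1 and Hbb-bs, summed to 842 to 1346 and 782 to 1708, and the 10 germ cell markers to 121793 to 167469 and 131358 to 162334, with overlap in both.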
